A study of Mus musculus with 18 samples.

Results

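The oxidases described here are 9 gene symbols of the deposited count table, Lao1, Il4i1, Il4i1b, Maoa, Maob, Aoc1, Ddo, Pipox and Xdh, out of 45777 genes in all. They were chosen by symbol, as the L-amino acid oxidases that the study deleted and other flavin or metal enzymes that oxidise amines, amino acids or purines and release hydrogen peroxide. Il4i1 and Il4i1b are overlapping gene models, so their counts were summed, which left 8 features, and 7 of these had enough counts to be tested. Messenger RNA had been sequenced from whole colon of male C57BL/6J mice, aged 8 weeks and kept germ-free, that is, without any microbes. The 6 groups of 3 biological replicates, lettered A to C, combined 3 genotypes with 2 drinking conditions. DKO mice carried deletions of both Lao1 and Il4i1 (Lao1-/- Il4i1-/-), LAO1KO mice carried the deletion of Lao1 alone (Lao1-/-), and WT mice carried neither. In the DSS groups the drinking water held 2.5% dextran sulfate sodium for 24 h, a polymer that injures the colon lining, and in the water groups it was sterile water with nothing added. The labels do not say which exons were deleted, and every group shares the germ-free state, so nothing here bears on a colon with microbes.

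L-amino acid oxidases take an amino group off an amino acid and give a keto acid, ammonia and hydrogen peroxide. Lao1 encodes the enzyme known from mouse milk, and Il4i1 encodes a secreted enzyme of macrophages, dendritic cells and B cells that acts mainly on phenylalanine, tyrosine and tryptophan. The monoamine oxidases of the outer mitochondrial membrane, Maoa and Maob, break down serotonin, dopamine and other amines, and Aoc1 encodes diamine oxidase, the gut enzyme that degrades histamine and putrescine outside cells. Ddo and Pipox encode peroxisomal enzymes that act on D-aspartate and on sarcosine and pipecolic acid. Xdh encodes xanthine dehydrogenase, which carries purine breakdown to uric acid and yields peroxide and superoxide in its oxidase form.

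On the RefSeq annotation of GRCm38.p6 the 9 genes lie on 7 chromosomes. Il4i1 (chromosome 7, 44836288 to 44840809) overlaps the 3′ part of Il4i1b (44816370 to 44840804) on the same strand, and Maoa (chromosome X, 16619698 to 16687812, plus strand) faces Maob (16709281 to 16817366, minus strand) end to end. Lao1 lies at 118961967 to 118968910 on chromosome 4, Aoc1 at 48895255 to 48909188 on chromosome 6, Ddo at 40630011 to 40681847 on chromosome 10, Pipox at 77880614 to 77893872 on chromosome 11 and Xdh at 73883895 to 73950397 on chromosome 17. The stretches below come from the RefSeq promoter windows of GRCm38.p6, which matched 7 of the 9 symbols. The first pair, shown because Il4i1 and Il4i1b start far apart but end within a few bases of each other, is the 30 bases that end just before each annotated start (chr7:44836258-44836287 and chr7:44816340-44816369, plus strand).
Il4i1: acttttaaggggagagtcgcagaggctctg
Il4i1b: ccccgcgagctctgaaagggcgggaaaggc
The 250 bases before the Il4i1b start had a GC content of 68.0% with 29 CG dinucleotides, and the 250 bases before the Il4i1 start had 53.2% with 3. The other windows held 1 to 11 CG dinucleotides, with 11 before Maoa. Both strands of each window were searched for TTCNNNNGAA, the palindromic gap motif read by STAT6, which relays the interleukin-4 signal that Il4i1 is named for, and for CACGTG, the palindromic E-box read by the clock proteins, since the clock gene Dbp differed between the drinking conditions. The matches, in capitals, stood in 1 window each of Il4i1b (chr7:44816169-44816198), Aoc1 (chr6:48895034-48895063) and Ddo (chr10:40629872-40629901), all on the plus strand.
Il4i1b: agcccccaaaTTCTCCGGAAgcacgccctc
Aoc1: ccaagcatagTTCTTGCGAAaggtggccac
Ddo: ccacagagcttaCACGTGcctctctcctgg
Among 32851 promoter windows of the same length, 5.85% held TTCNNNNGAA and 6.02% held CACGTG, so neither motif is rare, and the matches are descriptions of these letters only.

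The libraries held 26003174 to 36553193 counts. Markers of colon epithelium summed to 14674 to 30171 CPM (counts as a share of the library's total after scaling with TMM factors) in every library, with all 12 of the genes on that list detected. WT water B and LAO1KO water A stood apart on the first principal component (-84.2 and -65.5) and had the highest summed smooth muscle markers. Mitochondrial mRNA made up 14.3 to 44.9% of the counts in DSS libraries and 6.89 to 20.7% in water libraries, with the highest share in WT DSS C. Dbp, a gene that cycles with the time of day, had 49.2 to 131 CPM in DSS libraries and 6.02 to 35.5 CPM in water libraries. Within DSS libraries Dbp had 107 to 131 CPM in WT, 71.9 to 88.5 CPM in LAO1KO and 49.2 to 55.1 CPM in DKO. Within water libraries it had 6.02 to 13.6 CPM in WT, 9.45 to 35.5 CPM in LAO1KO and 22.1 to 29.4 CPM in DKO. The hour of collection is not given, so time of day and DSS cannot be told apart in any DSS comparison below. Its part in the genotype comparisons, and in the differences between DSS responses, was not tested.

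Lao1, the gene deleted in both knockouts, was barely detected in the colon of any genotype. It had 6, 2 and 10 counts in DKO DSS libraries and 9, 0 and 5 counts in DKO water libraries. LAO1KO DSS libraries had 9, 10 and 2 counts and LAO1KO water libraries 5, 5 and 0 counts. WT DSS libraries had 0, 4 and 0 counts and WT water libraries 0, 0 and 2 counts. Knockout and WT libraries overlapped, the highest counts were in knockout libraries and none was above 10, while a count of 0 allows up to 3 counts per library, a limit that covers counting error only. The mean level was 0.170 CPM in DKO and 0.0335 CPM in WT libraries (exact permutation test, 2-sided, p = 0.045, adjusted p = 0.09 over 8 tests), and 0.162 CPM in LAO1KO libraries (p = 0.04, adjusted p = 0.09). Lao1 was too low to check the label of the LAO1KO and DKO libraries, and with the deleted part unknown the reads left there check nothing. Its level was 0.153 CPM in DSS and 0.0908 CPM in water libraries (exact permutation test, 2-sided, p = 0.238, adjusted p = 0.367).

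Il4i1, as the sum of both gene models, was at 0 in 5 of the 6 DKO libraries and present at a low level in every LAO1KO and WT library. It had 0, 0.363 and 0 CPM in DKO DSS libraries and 0 CPM in all 3 DKO water libraries. It had 1.85, 1.73 and 0.491 CPM in LAO1KO DSS libraries and 1.14, 0.686 and 1.59 CPM in LAO1KO water libraries. It had 1.61, 0.922 and 2.94 CPM in WT DSS libraries and 1.59, 0.861 and 1.36 CPM in WT water libraries. The highest DKO library, DKO DSS B with 12 counts, was below the lowest LAO1KO library and the lowest WT library, so DKO did not overlap with either genotype. The share of all genes that separate the genotypes in this way was not counted. In DKO libraries Il4i1 fell below WT by 1.49 CPM (0.0605 ± 0.148 against 1.55 ± 0.754 CPM, SD, n = 6 each; exact permutation test, 2-sided, p = 0.005, the smallest that 400 arrangements give, adjusted p = 0.02). Against LAO1KO libraries, at 1.24 ± 0.566 CPM, it was lower by the same exact permutation test (difference -1.18 CPM, p = 0.005, adjusted p = 0.02, n = 6 each). With 3 counts as the floor over the group, it was at least 38.9-fold lower in DKO water than in WT water and at least 34.8-fold lower than in LAO1KO water.

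In edgeR's quasi-likelihood test across all genes, Il4i1 was the only one of the 7 oxidases that passed an adjusted p of 0.05 in a genotype comparison. It passed for DKO against WT averaged over treatments (log2 fold change -6.09 ± 0.899, SE, adjusted p = 0.00277), where 0.26% of all genes were called lower and 0.578% in either direction. It passed for DKO against LAO1KO (-5.81 ± 0.907, adjusted p = 0.00979; 0.133% of all genes were called lower and 0.249% in either direction) and for DKO against WT under water (adjusted p = 0.0307; 0.265% lower). Under DSS the fitted change was -3.87 ± 0.92 with an adjusted p of 0.168, where 0.255% of all genes were called and 2 of the 7 oxidases had an unadjusted p under 0.05 (9.69% of all genes), and it was -8.79 with an adjusted p of 0.0128 without DKO DSS B. The call under water was lost without WT water A, DKO water A, DKO water B or DKO water C (adjusted p 0.0612 to 0.136), and that against LAO1KO was lost when only those groups were fitted (adjusted p = 0.056). Il4i1 passed the filter on low counts only through the LAO1KO and WT libraries. With 0 counts in every DKO water library, the sizes of its fold changes averaged over treatments, and their SEs, depend on how the fit handles zeros. LAO1KO and WT had means of 1.24 and 1.55 CPM (exact permutation test, 2-sided, p = 0.47).

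The share of reads given to each gene model differed between libraries of 1 group. In LAO1KO water C all 50 counts were on the Il4i1 line and none on Il4i1b, and in LAO1KO DSS B all 47 were on Il4i1b. WT water A had 52 counts on Il4i1 and 5 on Il4i1b, whereas WT water C had 0 and 51. Over each genotype, Il4i1 and Il4i1b had 0 and 12 counts in DKO, 102 and 139 in LAO1KO and 66 and 186 in WT. Taken alone, neither line passed edgeR's test in any of the genotype comparisons that the sum passed, so the call rests on the sum.

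**Figure D1:**
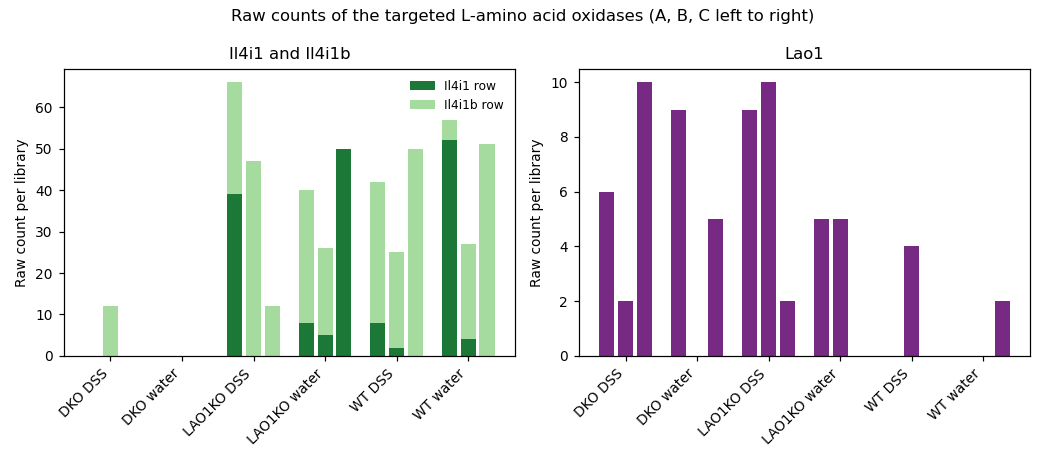
Raw counts per library of Il4i1 and Il4i1b (left, stacked) and Lao1 (right), with replicates A, B and C of each group side by side. DKO libraries are empty for Il4i1 and Il4i1b except for 12 counts in DKO DSS B, and Lao1 never exceeds 10 counts.

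Tbc1d17, a Rab GTPase-activating gene that overlaps Il4i1 on the opposite strand, was also lower in DKO libraries. In GENCODE M21 (GRCm38) its 3′ untranslated exon, 44834623 to 44841231 on the minus strand, covers the 3′ part of Il4i1 (44816387 to 44840809 there), whereas in RefSeq Tbc1d17 (44840776 to 44849079) overlaps only its last bases. Tbc1d17 had 15.5, 13.3 and 13.3 CPM in DKO DSS libraries and 11.4, 15.6 and 17.5 CPM in DKO water libraries. It had 20.4 to 43.4 CPM over the 6 LAO1KO libraries, 36.2 to 37.5 CPM in WT DSS libraries and 23.9 to 36.7 CPM in WT water libraries. No DKO library reached the lowest LAO1KO or WT library, a description only, since the share of all genes without overlap was not counted. In edgeR's test the log2 fold change of Tbc1d17 was -1.21 ± 0.169 for DKO against WT (adjusted p = 8.24e-04) and -1.0 ± 0.169 for DKO against LAO1KO (adjusted p = 0.00999), both averaged over treatments. Nup62, which overlaps the 5′ part of Il4i1b, had -0.27 ± 0.111 (edgeR adjusted p = 0.422) for DKO against WT averaged over treatments. Under water it had -0.525 ± 0.156 (edgeR adjusted p = 0.122), with 21.0 to 26.7 CPM in DKO and 28.3 to 39.2 CPM in WT libraries. Under DSS it had -0.018 ± 0.157 (edgeR adjusted p = 0.975). The kit was stranded but how strand was counted is not stated, so reads of Il4i1 and Tbc1d17 cannot be told apart with certainty, and what the Il4i1 deletion removed from the Tbc1d17 exon was not tested.

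**Figure D2:**
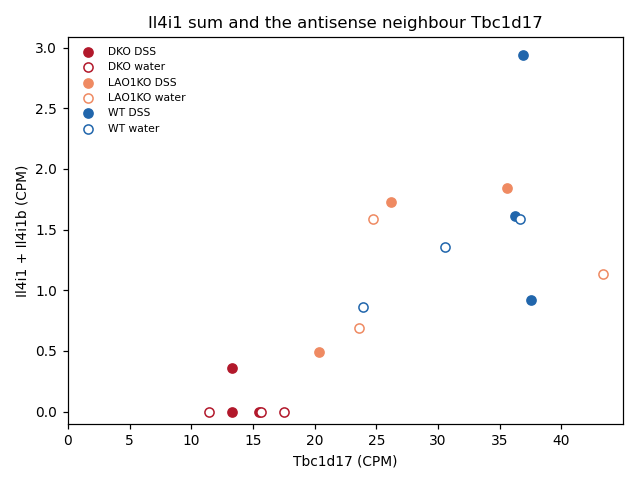
Il4i1 plus Il4i1b against Tbc1d17, both in CPM, 1 point per library, filled for DSS and open for water. The 6 DKO libraries lie at 11.4 to 17.5 CPM of Tbc1d17 and 0 to 0.363 CPM of Il4i1, apart from the LAO1KO and WT libraries.

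Per transcript length, the colon held far more of the amine oxidases than of the L-amino acid oxidases. Over the 18 libraries Maoa averaged 234.93 ± 48.9 CPM per kilobase (SD) and Aoc1 176.8 ± 48.6. Xdh followed with 19.0 ± 4.2 and Maob with 8.37 ± 1.75 CPM per kilobase. Pipox had 2.46 ± 0.902, Ddo 1.25 ± 0.316, Il4i1 0.418 ± 0.369 and Lao1 0.0519 ± 0.0515 CPM per kilobase. These means include the knockouts, and Il4i1 had 0.802 ± 0.451 in WT DSS and 0.558 ± 0.163 CPM per kilobase in WT water libraries (SD, n = 3 each). The ranges of Maoa (177 to 360.5) and Aoc1 (44.2 to 301 CPM per kilobase) overlapped, as did those of Pipox and Ddo, and Il4i1 (0 to 1.29) overlapped with Pipox, Ddo and Lao1, whereas Maob and Xdh overlapped with no other of these genes. Maoa made up 53.8 to 75.5% of the summed CPM of the oxidases in a library, and Aoc1 12.5 to 38.7%.

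**Figure D3:**
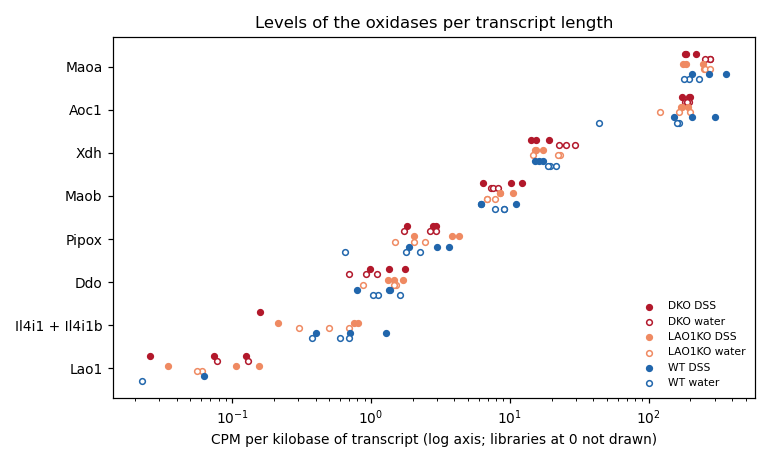
CPM per kilobase of transcript (log axis) of the 8 features, 1 point per library, with libraries at 0 not drawn. Maoa and Aoc1 lie above all the others, the lowest Aoc1 library being WT water B at 44.2, and Il4i1 and Lao1 lie lowest.

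Xdh was lower after DSS, and it was the only oxidase that passed the test of DSS. It had 87.6, 65.8 and 70.7 CPM in DKO DSS libraries, against 135, 103 and 117 CPM in DKO water libraries. It had 70.6, 69.7 and 79.6 CPM in LAO1KO DSS libraries, against 68.2, 105 and 103 CPM in LAO1KO water libraries. It had 69.5, 80.2 and 74.9 CPM in WT DSS libraries, against 98.4, 89.8 and 86.9 CPM in WT water libraries. Within DKO and within WT every DSS library was below every water library, and within LAO1KO this held but for LAO1KO water A, 1 of the 2 libraries that stand apart, which lay below all 3 DSS libraries. How many of all genes separate groups of 3 libraries in this way was not counted, so this is a description only. Averaged over genotypes, Xdh fell by 0.43 on the log2 scale (SE 0.090, edgeR quasi-likelihood test, adjusted p = 0.00507), with means of 74.3 ± 6.93 CPM in DSS and 100.7 ± 18.8 CPM in water libraries (SD, n = 9 each). In that comparison 15.9% of all genes were called, 9.18% as lower, beside 1 of 7 oxidases. The change ran from -0.60 to -0.39 over 27 other settings, with adjusted p 1.33e-04 to 0.0143. In whole tissue, fewer cells of a type and less RNA per cell cannot be told apart.

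Taken in each genotype, the DSS change of Xdh was -0.66 ± 0.156 in DKO (SE, adjusted p = 0.164), -0.33 ± 0.155 in LAO1KO (adjusted p = 0.319) and -0.29 ± 0.155 in WT (adjusted p = 0.219), by edgeR. None passed, and the difference between the DKO and WT responses, -0.37 ± 0.219, did not pass either (adjusted p = 0.435) and was 0.079 when libraries were scaled to total counts. With total-count scaling the WT change was -0.74 and passed (edgeR adjusted p = 0.0083). The DKO response passed with DESeq2 (adjusted p = 0.0122) and without LAO1KO water A (adjusted p = 0.0363). Of all genes, 0.0159% were called for DSS in DKO, 0.196% in LAO1KO and 12.9% in WT. DKO water had the highest Xdh of the 6 groups, 118 ± 15.8 CPM against 91.7 ± 5.96 CPM in WT water (SD, n = 3 each), without overlap, but the log2 difference of 0.37 ± 0.155 did not pass (edgeR, adjusted p = 0.239). On TMM scaling the 3 DSS groups had means of 74.7, 73.3 and 74.9 CPM in DKO, LAO1KO and WT, closer to each other than their SDs of 11.5, 5.44 and 5.35 CPM. With total-count scaling the DSS libraries had 93.6, 67.1 and 73.5 CPM in DKO, 73.5, 70.5 and 74.9 CPM in LAO1KO and 60.7, 74.8 and 46.8 CPM in WT, so this closeness depends on the scaling.

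Maoa had a lower level after DSS in both knockouts and a higher one in WT on TMM scaling, without passing the test in any genotype. It had 771, 763 and 909.6 CPM in DKO DSS libraries, against 1147, 1161 and 1064 CPM in DKO water libraries. It had 737, 769 and 1019 CPM in LAO1KO DSS libraries, against 1039.55, 1069 and 1158 CPM in LAO1KO water libraries. It had 1134, 854 and 1502 CPM in WT DSS libraries, against 809, 753 and 961 CPM in WT water libraries. DSS and water libraries did not overlap within DKO or within LAO1KO, and WT DSS B lay among the WT water libraries. Here and in the values below, the share of all genes without overlap was not counted, so non-overlap is a description only. The log2 fold change of DSS was -0.47 ± 0.186 in DKO (SE, adjusted p = 0.441), -0.37 ± 0.186 in LAO1KO (adjusted p = 0.348) and 0.47 ± 0.186 in WT (adjusted p = 0.102), by edgeR. In WT it was 0.61 (adjusted p = 0.0366) without WT DSS B, 0.23 without WT DSS C, and -0.036 when libraries were scaled to total counts, so its direction depends on the scaling. Across the 18 libraries the Spearman correlation of Maoa with the summed smooth muscle markers was -0.686, as a description. Those markers summed to 3191 to 6608 CPM in WT DSS and 5389 to 8671 CPM in WT water libraries. The sums were 3883 to 6307 CPM in DKO DSS and 2162 to 5141 CPM in DKO water, 4648 to 6283 CPM in LAO1KO DSS and 3096 to 8345 CPM in LAO1KO water. The part of muscle content in the Maoa values was not tested.

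The DSS response of Maoa differed from that of WT by -0.93 ± 0.263 in DKO (SE, unadjusted p = 0.00239, edgeR adjusted p = 0.13) and by -0.84 ± 0.263 in LAO1KO (unadjusted p = 0.00518, adjusted p = 0.162). Both differences rest on the same WT libraries, and Maoa was the 1 oxidase of 7 with an unadjusted p under 0.05 in either (15.4 and 15.9% of all genes for DKO and LAO1KO). They passed with DESeq2 (adjusted p = 0.0244 and 0.0467) and were -0.44 and -0.41 with total-count scaling. Of all genes 0.0584% were called for the DKO difference and 0% for the LAO1KO difference, where 3005 genes had an unadjusted p under 0.05, DESeq2 called 443 and limma voom 1. Without DSS, Maoa was higher in DKO water than in WT water by 0.42 ± 0.186 on the log2 scale without overlap (adjusted p = 0.261; 0.647% of all genes called) and in LAO1KO water by 0.37 ± 0.186 without overlap (adjusted p = 0.373; 0.0584% called), by edgeR.

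Maob, the second monoamine oxidase, ran the other way in these values. It had 15.5, 29.4 and 24.7 CPM in DKO DSS libraries, against 17.7, 18.2 and 19.9 CPM in DKO water libraries. It had 20.6, 25.5 and 20.6 CPM in LAO1KO DSS libraries, against 16.5, 18.8 and 16.4 CPM in LAO1KO water libraries. It had 14.9, 14.9 and 26.9 CPM in WT DSS libraries, against 19.0, 21.9 and 22.1 CPM in WT water libraries. Only the LAO1KO libraries did not overlap between DSS and water. No change of Maob passed edgeR's test, with 0.32 ± 0.22 in DKO (SE, adjusted p = 0.672), 0.37 ± 0.221 in LAO1KO (adjusted p = 0.432) and -0.15 ± 0.221 in WT (adjusted p = 0.685) on the log2 scale, but with total-count scaling the WT change was -0.67 and passed (edgeR adjusted p = 0.0142).

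The ratio of Maoa to Maob within a library does not depend on how libraries are scaled. It was 49.6, 26 and 36.8 in DKO DSS libraries, against 64.9, 63.6 and 53.6 in DKO water libraries. It was 35.9, 30.1 and 49.5 in LAO1KO DSS libraries, against 63.0, 57.0 and 70.5 in LAO1KO water libraries. It was 76.1, 57.2 and 55.8 in WT DSS libraries, against 42.7, 34.4 and 43.6 in WT water libraries. In both knockouts every DSS library thus had a lower ratio than every water library, and in WT every DSS library had a higher one. The DSS response of the log2 ratio was -0.74 in DKO, -0.75 in LAO1KO and 0.64 in WT, a difference from WT of -1.38 and -1.39 (exact permutation test, 2-sided, p = 0.005 each, the smallest that 400 arrangements give). The pair was singled out after its values were seen. Over all 15 pairs of the 6 oxidases detected in every library, 30 tests, the adjusted p was 0.075, so the differences did not pass. Even at the smallest p they could pass only if other pairs came close to that p too. The adjusted p is thus set by the few arrangements and does not measure the differences. A ratio shows that the genes changed unequally, not which of them changed. The part of muscle content or of time of day in the ratio was not tested.

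**Figure D4:**
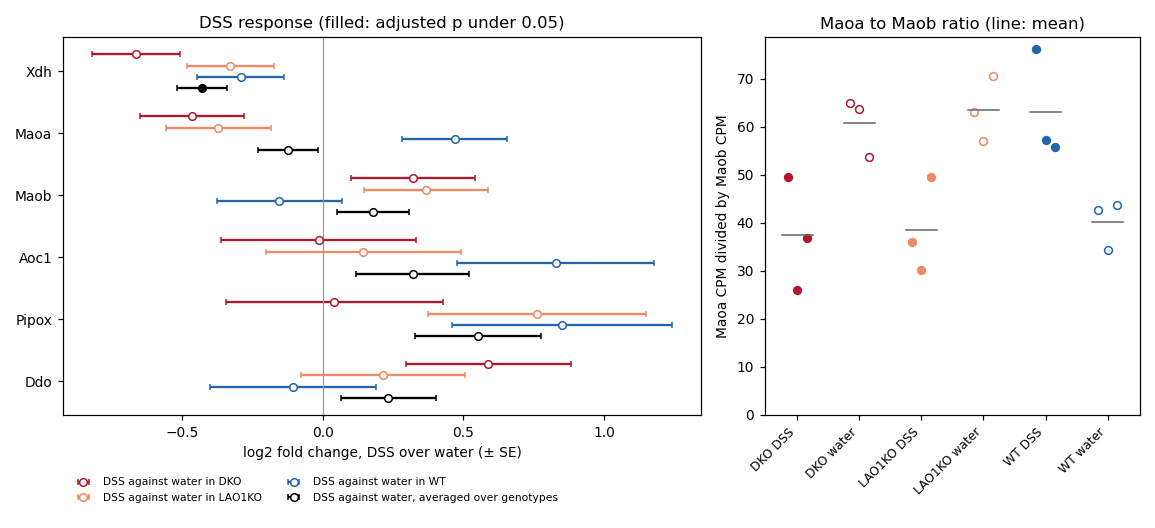
Left, log2 fold change of DSS over water with its SE for 6 oxidases in DKO, LAO1KO and WT and averaged over genotypes, on TMM scaling. Right, Maoa CPM divided by Maob CPM in each library with the group mean. Only the averaged Xdh value is filled as passing, and the Maoa change in WT (0.47) lies on the other side of 0 from DKO and LAO1KO, but is -0.036 with total-count scaling.

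Aoc1 was even across most groups, and on TMM scaling its spread was widest in WT. It had 489, 549 and 559.5 CPM in DKO DSS libraries, against 520.3, 556 and 536 CPM in DKO water libraries. It had 482, 489 and 543 CPM in LAO1KO DSS libraries, against 343, 467 and 559 CPM in LAO1KO water libraries. It had 583, 431 and 853 CPM in WT DSS libraries, against 472, 125 and 453 CPM in WT water libraries. WT DSS C was the highest of all 18 on TMM scaling, but with total-count scaling it had 533 CPM, below DKO water B at 634 CPM, and WT water B was the lowest on both. On TMM scaling the coefficient of variation over 6 libraries was 5.01% in DKO, 15.9% in LAO1KO and 48.6% in WT. The log2 change of DSS was -0.014 ± 0.347 in DKO, 0.15 ± 0.347 in LAO1KO and 0.83 ± 0.35 in WT (SE, edgeR adjusted p = 0.994, 0.865 and 0.125). The WT value was 0.43 without WT water B and 0.30 with total-count scaling.

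The 2 lowest Aoc1 libraries, WT water B at 125 CPM and LAO1KO water A at 343 CPM, are the 2 that stand apart. Their 8 smooth muscle markers summed to 8671 and 8345 CPM, against 2162 to 6608 CPM in the other 16 libraries. Hoxb13, a gene of the most distal gut that was looked up after the values were seen, had 4.97 CPM in WT water B and 0.653 CPM in LAO1KO water A, and at most 0.266 CPM elsewhere. Hoxd13, another distal gene looked up with it, was at 0 in both and at most 0.0872 CPM elsewhere. The part of muscle content or of the stretch of colon sampled in the Aoc1 values was not tested. Across the 18 libraries the Spearman correlation of Aoc1 with the summed smooth muscle markers was -0.571 and with the fibroblast markers -0.684, a description of libraries that share depth, scaling and those 2 samples.

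Ddo, which clears D-aspartate, and Pipox were low and close to their spread. Ddo had 2.96, 5.26 and 4.08 CPM in DKO DSS, 2.09, 2.77 and 3.32 CPM in DKO water libraries. It ranged from 4.0 to 5.07 CPM in LAO1KO DSS, 2.63 to 4.51 CPM in LAO1KO water, 2.38 to 4.09 CPM in WT DSS and 3.09 to 4.85 CPM in WT water libraries. DSS and water libraries overlapped within each genotype, and the DSS change of Ddo was 0.23 ± 0.169 on the log2 scale averaged over genotypes (SE, edgeR adjusted p = 0.361). Ddo followed the summed smooth muscle markers across libraries (Spearman rho 0.695 over 18 libraries, as a description).

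Pipox had 3.66, 5.92 and 5.56 CPM in DKO DSS libraries, against 5.89, 5.35 and 3.46 CPM in DKO water libraries. It had 7.61, 8.63 and 4.09 CPM in LAO1KO DSS libraries, against 2.98, 4.12 and 4.92 CPM in LAO1KO water libraries. It had 7.26, 5.98 and 3.76 CPM in WT DSS libraries, against 4.54, 1.31 and 3.59 CPM in WT water libraries. DSS and water libraries overlapped in every genotype. Pipox averaged 5.83 ± 1.77 CPM in DSS and 4.02 ± 1.38 CPM in water libraries (SD, n = 9 each), a log2 difference of 0.55 ± 0.224 that did not pass (SE, edgeR, unadjusted p = 0.0246, adjusted p = 0.0998). On TMM scaling its 2 lowest libraries were again WT water B and LAO1KO water A, but with total-count scaling WT DSS C at 2.35 CPM lay below LAO1KO water A at 2.87 CPM.

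**Figure D5:**
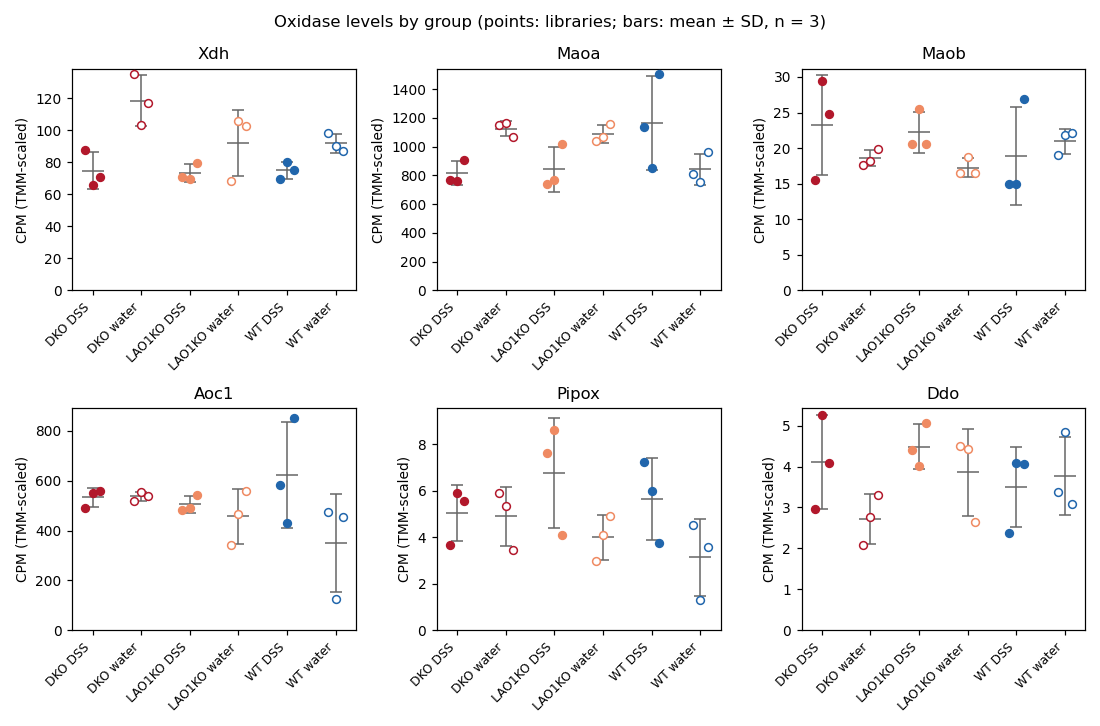
CPM of 6 oxidases in the 18 libraries by group, with the mean and SD (n = 3). Xdh lies lower in the DSS than in the water libraries of DKO and WT without overlap, and Aoc1 spreads most in WT on this TMM scaling.

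Apart from Il4i1, no oxidase passed between genotypes. In edgeR's test 0 of 7 passed for LAO1KO against WT under water, under DSS or averaged, where 0.0584, 0.0849 and 0.133% of all genes were called. At an unadjusted p under 0.05 there were 0, 1 and 0 of them (14.3, 6.03 and 4.8% of all genes), and limma voom and DESeq2 also called 0. Averaged over treatments, the log2 difference of DKO over WT was -0.048 ± 0.131 for Maoa, 0.064 ± 0.156 for Maob, 0.20 ± 0.246 for Aoc1, -0.12 ± 0.208 for Ddo, 0.23 ± 0.274 for Pipox and 0.18 ± 0.11 for Xdh (SE). The median over the 7 oxidases was 0.064, beside -0.000995 over all genes tested. For DSS against water within DKO, LAO1KO and WT, 0 of 7 passed in edgeR and limma voom, with 3, 1 and 3 at an unadjusted p under 0.05 (9.6, 15.6 and 29.5% of all genes), and DESeq2 called 1, 0 and 0. The median DSS change over the 7 was 0.23 averaged over genotypes, beside 0.031 over all genes tested.

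Other genes of the same pathways were read from 3 lists. Of 26 tested genes for other peroxide-releasing oxidases, 1 rose and 4 fell after DSS averaged over genotypes, where 6.72% of all genes were called higher and 9.18% lower. Acox3, a peroxisomal oxidase of fatty acid breakdown, fell by 0.25 ± 0.058 on the log2 scale (SE, edgeR adjusted p = 0.0089). Of the lysyl oxidases that crosslink collagen, Loxl2 fell by 0.56 ± 0.18 (adjusted p = 0.046, edgeR) and Loxl3 rose by 0.40 ± 0.128 (adjusted p = 0.0446), but Loxl3 did not pass with total-count scaling (0.21, adjusted p = 0.309), nor Loxl2 without WT water B and LAO1KO water A (-0.38, adjusted p = 0.144). The median of the list was -0.0095, beside 0.031 over all genes.

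Of 19 tested genes that make and dispose of amines, 1 rose and 5 fell in the same comparison, where 6.72% of all genes were called higher and 9.18% lower. The median was -0.15, beside 0.031 over all genes. The 1 that rose, Sat1, which acetylates polyamines, did so by 0.33 ± 0.078 on TMM scaling but did not pass with total-count scaling (0.16, edgeR adjusted p = 0.197). Odc1, the enzyme that makes putrescine, a substrate of diamine oxidase, fell by 0.89 ± 0.183, with 122 CPM in DSS and 235 CPM in water libraries (edgeR adjusted p = 0.00512). Azin1, which protects that enzyme from its inhibitor, fell by 0.78 ± 0.141 (adjusted p = 0.00216, edgeR). Ddc, which makes serotonin and dopamine, and Aldh3a2, which oxidises fatty aldehydes, fell by 0.44 ± 0.099 and 0.44 ± 0.067 (adjusted p = 0.00767 and 6.92e-04, edgeR). Of 17 purine genes tested, 0 rose and 2 fell, which is near the 9.18% of all genes called lower. Gda, guanine deaminase, fell by 0.56 ± 0.1 and Pnp, purine nucleoside phosphorylase, by 0.56 ± 0.13 (adjusted p = 0.00202 and 0.00909, edgeR). The purine median was 0.022, close to the 0.031 over all genes.

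In WT alone the same lists had 0 higher and 2 lower oxidases, 1 higher and 4 lower amine genes, and 1 higher and 1 lower purine gene, where 6.29% of all genes were called higher and 6.59% lower. Loxl2 fell by 1.21 ± 0.315 and Smox, spermine oxidase, by 1.23 ± 0.339 (SE, edgeR adjusted p = 0.021 and 0.0278). Odc1 fell by 1.25 ± 0.319, Amd1, which makes the aminopropyl donor for polyamines, by 0.42 ± 0.129 and Srm, which makes spermidine, by 0.85 ± 0.267, and Sat1 rose by 0.57 ± 0.136 (adjusted p = 0.0195, 0.0418, 0.0454 and 0.0135, edgeR). Of the purine genes Aprt, which salvages adenine, rose by 0.62 ± 0.178 and Pnp fell by 0.71 ± 0.226 (adjusted p = 0.0313 and 0.0474, edgeR). With total-count scaling Sat1 and Aprt did not pass in WT (0.11 and 0.12, adjusted p = 0.594 and 0.578, edgeR), and without WT water B and LAO1KO water A only Odc1, Sat1 and Aprt of these genes still did (the others had adjusted p from 0.0748 to 0.15). No gene of the 3 lists passed in any of the other 11 comparisons. Markers of enteric neurons and glia moved with DSS too: 8 of 10 were called higher averaged over genotypes, and their summed level was 162 to 350.3 CPM in DSS and 97.5 to 221 CPM in water libraries. Averaged over genotypes, small intestine markers were called higher in 3 of 9 and colon epithelium markers lower in 2 of 12. In that comparison 6.72% of all genes were called higher and 9.18% lower. The list medians were -0.12 for small intestine, opposite to its calls, and -0.26 for colon epithelium, beside 0.031 over all genes. In WT, 0 of 9 small intestine markers were called higher. Fibroblast markers were called lower in 1 of 8 averaged over genotypes and in 3 of 8 in WT, where they summed to 330.2 to 726 CPM in DSS and 685 to 1181 CPM in water libraries. The part of these cell types in the results, Loxl2 included, was not tested.

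Across the 18 libraries, as a description, the genes with expression most like each oxidase were found among 11067 genes by Spearman rho. Maoa ran with Ctss (0.928), Selenbp1 (0.922) and Selenop (0.909), and Xdh with Btnl5-ps (0.903), Eps8l2 (0.889) and Abca12 (0.886). Aoc1 ran with Ttc36 (0.837), Gngt2 (0.825) and Cyp2d26 (0.806), and Maob with Slc24a3 (0.843), Nt5e (0.839) and Dnaja4 (0.837). Ddo ran with Gnai1 (0.897), Sparcl1 (0.851) and Trnp1 (0.849), and Pipox with Tifa (0.872), Large2 (0.835) and Noxa1 (0.835). Il4i1 ran with Alkbh6 (0.841), Pglyrp1 (0.837) and its antisense neighbour Tbc1d17 (0.796). Its lowest values are those of the DKO libraries, where it is deleted, so these values include the genotype difference, whose part was not tested. Among the oxidases themselves the highest rho was 0.515 for Maoa with Aoc1 and the lowest -0.517 for Maoa with Ddo. The values above were picked as the highest among 11067 genes, so the pairs of oxidases cannot be set against them. Of the 11 cell type lists, Il4i1 had its highest rho with red cell markers (0.439), then B cell markers (0.372) and macrophage and dendritic cell markers (0.255). The DKO libraries, where Il4i1 is deleted, are among the 18, so these values do not tell which cells express it.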

How the data were processed

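The labels' protocols give total RNA from colon, a stranded mRNA kit and paired reads. The submitters' processing notes name HISAT2 2.1.0 and StringTie 2.1.3b among their tools and the builds mm10 and GRCm38, without settings. The authors deposited raw counts per gene symbol, 1 column per library; how strand and overlapping genes were counted is not given in the sources used here. The oxidases and lists were chosen with earlier results of these data known.

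Counts were fitted in R 4.3.3 with edgeR 4.0.16 (quasi-likelihood, robust, TMM factors, all 18 libraries, 1 mean per group) after filterByExpr at a minimum count of 10 and a minimum total of 15, which left 18847 genes. Benjamini-Hochberg adjustment ran over all genes in each of 13 comparisons, with a threshold of 0.05. The steps were tested on simulated data. Lao1 and Il4i1 levels were compared by exact permutation within treatment or genotype. Lengths came from GENCODE M21 (GRCm38). Every oxidase is named, with up to 4 genes per list and comparison by smallest p (1 such gene is not reported here), and the 3 most alike genes with a mean of at least 5 CPM. DESeq2 1.42.0 and limma 3.58.1 (voom) were alternatives.

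Replicate letters are shared across groups. The deviations of same-letter libraries correlated above 0.1 in every pair only between WT DSS and WT water (0.165 to 0.216). They were also all positive between DKO DSS and DKO water (0.0661 to 0.263), DKO DSS and LAO1KO DSS (0.0703 to 0.319), and DKO water and LAO1KO water (0.0429 to 0.24). Over the other 8 pairs of groups the values ran from -0.299 to 0.319. The labels give no pairing, and values for different letters were not set beside these, so pairing cannot be judged from them. No per-sample column was left unmapped.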

Additional observations from a re-analysis of the deposited data

Results flagged for a closer look

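Of 40 sets of libraries examined, each an oxidase in 1 genotype or 1 drinking condition, 5 had a highest or lowest library set apart from the rest by more than Dixon's limit. Chance gives about 1 in 20 for independent sets of normally distributed values. These sets pool different groups, share libraries and in part hold many zeros, so the 5 cannot be set against that rate. Lao1 in WT was highest in WT DSS B at 0.148 CPM, with the next library at 0.0532 CPM, which is a matter of 4 and 2 counts. Il4i1 in DKO was highest in DKO DSS B at 0.363 CPM, with the other 5 libraries at 0. Il4i1 in WT was highest in WT DSS C at 2.94 CPM, with the next at 1.61 CPM. Aoc1 among the DSS libraries was highest in WT DSS C at 853 CPM, with the next at 583 CPM, and WT DSS C also had the largest mitochondrial share, 44.9%. Aoc1 among the water libraries was lowest in WT water B at 125 CPM, with the next at 343 CPM. These hold on TMM scaling: with total-count scaling, 1 of them, Il4i1 in DKO, was still set apart, WT DSS C had 533 CPM of Aoc1 against 581 CPM in DKO DSS C, and 2 others were, Aoc1 in WT (lowest in WT water B at 133 CPM) and among the DSS libraries (lowest in WT DSS B at 402 CPM).

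The log2 ratio of Maoa to Maob was singled out because every knockout DSS library was below every water library of its genotype while in WT every DSS library was above. The DSS response differed from that of WT by -1.38 in DKO and by -1.39 in LAO1KO, with an adjusted p of 0.075 by exact permutation over 30 such tests. Both had the smallest p that the arrangements give, so this adjusted p could not be lower without other pairs near that p.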

How the results depend on the processing

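Of 2527 values of single fold changes under other settings, 2509 kept their side of the threshold, 6 lost a call, 12 gained one and 0 turned a called direction round, while 115 uncalled values changed sign. Of 168 permutation tests of Lao1 and Il4i1 levels 163 kept their side, 3 lost an Il4i1 call, and Lao1 passed for LAO1KO against WT without LAO1KO water C and for DKO against WT without DKO water B (exact permutation, adjusted p = 0.04 each). Of 38 of the Maoa to Maob ratio all kept theirs, but the few arrangements make a pass hard to reach, so this is no sign of stability. DESeq2 called 2 oxidases for DSS averaged over genotypes (Xdh, and Il4i1 at 1.69, adjusted p = 0.0266, with DKO water at 0) and 1 each for DSS in DKO (Xdh), DKO against WT under DSS (Il4i1, -3.92) and both differences in DSS response (Maoa). With Il4i1 and Il4i1b as separate lines 0 passed for DKO against WT, under water or averaged, or against LAO1KO, and 0 passed against LAO1KO when only those groups were fitted. On the Il4i1 line alone the level difference of DKO was -0.326 CPM against WT (adjusted p = 0.16) and -0.506 CPM against LAO1KO (adjusted p = 0.133), and on Il4i1b alone -0.678 CPM against LAO1KO (adjusted p = 0.08), by exact permutation. The cause of these changes was not tested, beyond the smaller counts of each line.

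Total-count scaling and leaving out the 2 libraries that stand apart were added after seeing the data. Total-count scaling called 2 for DSS averaged over genotypes (Xdh, and Maoa at -0.32) and 2 in WT (Maob at -0.67 and Xdh at -0.74). It moved the median of all genes by DSS to -0.14 from 0.031 averaged over genotypes and to -0.42 from 0.023 in WT, and the share of calls that were lower to 92.6% from 57.7% and to 96.2% from 51.2%. Without WT water B and LAO1KO water A, 1 passed for DSS in DKO (Xdh, adjusted p = 0.0319) and 0 for DKO against WT under water. Leaving out each library in turn gave 0 to 1 calls for DSS in WT, DSS in DKO, and DKO against WT under water and under DSS, and Lao1 differences of 0.0956 to 0.167 CPM for LAO1KO and 0.1 to 0.178 CPM for DKO against WT. With the replicate block the same number of oxidases was called in all 13 comparisons, 1 for DSS averaged over genotypes, while 3388 genes in all were called there, against 2996 without it. Lao1 and Il4i1 are limited by depth: 3 counts are 0.0792 to 0.176 CPM in a library. The block called no oxidase that was not called without it and lost none.

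Counts over all genes moved more. DESeq2 called 674 genes for DSS in LAO1KO (edgeR 37), 173 for DSS in DKO (3), 298, 55 and 51 for LAO1KO against WT under water, under DSS and averaged (11, 16 and 25), 785, 151 and 225 for DKO against WT in the same order (122, 48 and 109), 105 for DKO against LAO1KO (47), and 443 and 489 for the differences in DSS response of LAO1KO and DKO (0 and 11). Total-count scaling called 6078 for DSS in WT (2428), 77 in LAO1KO, 5 in DKO, 45 for DKO against WT under water and 67 for the DKO difference in response. The block called 131 for DSS in LAO1KO, 6 in DKO and 35 for that difference. Without WT water B and LAO1KO water A the counts were 154 for DSS in LAO1KO, 63 in DKO, 33 for LAO1KO against WT under water and 98 for DKO against WT under DSS, and a fit of only the groups compared called 1084 for DSS in WT, 0 in LAO1KO, 33 in DKO and 34 for DKO against WT under water.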
